A study of Mus musculus with 7 samples.

Results

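Described here are 6 gene rows of an islet count table that holds 48440, each row giving the reads assigned to 1 Ensembl gene. They belong to, or lie opposite, genes of the lipoxygenase, prostanoid, leukotriene and platelet-activating factor pathways. Alox15 and Alox12 were taken as the genes nearest to the drug target. Ptgis was selected because the study, from its contrast of these samples, named it as an example in an altered inflammation pathway. The study's text gives no size or direction of change for it. Gm26542, Gm43621 and Gm45472 were selected on their counts in these same libraries, which earlier work had shown to differ between the groups, and each overlaps an eicosanoid or phospholipid gene on the other strand. The contrast that follows was thus known when the rows were chosen, and it is given for them as a description. Where the fit over all genes called 1 of them, this is stated once, beside the share of all genes called, and supports nothing.

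The islets came from female nonobese diabetic (NOD) mice in which the human ALOX12 coding region had replaced that of the mouse Alox15 gene (NOD.hALOX12), a change that both groups carried. The mouse regulatory region was kept, and the replacement was present in every tissue, so the model does not separate beta cells from macrophages. Mice received vehicle (4 libraries) or VLX-1005, an inhibitor of human 12-lipoxygenase, at 30 mg/kg by mouth each day (3 libraries) for 4 weeks from an age of 6 weeks. Islets were isolated at an age of 10 weeks, handpicked and cultured overnight, and polyadenylated RNA was sequenced from strand-specific libraries.

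Lipid mediators of this kind begin with arachidonic acid, which phospholipases release from membranes. Lipoxygenases add oxygen to it and give hydroperoxides and, through the helper protein of Alox5, leukotrienes. Cyclooxygenases turn it into the precursor from which synthases make prostaglandins, prostacyclin and thromboxane. Platelet-activating factor is made from the lysophospholipid that remains when such a fatty acid is cut off. In islets, products of the 12-lipoxygenase reaction have been linked to inflammation of beta cells and macrophages.

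The libraries held 1024586 to 1430785 counts, and 9862 to 12310 genes had at least 1 count. Rows with an annotated antisense partner, by exon overlap, took 95.7% to 96.3% of the counts in each library. The strand setting of the counting is not given in the sources used here, so reads at such a pair cannot be assigned to either gene with certainty. Own rows of genes known to be abundant were also low, as for the peroxidase gene Gpx4 with 7 counts in all 7 libraries, and the part of the strand setting in the low rows was not tested. All 8 of 8 markers of the endocrine islet had counts. Their own rows summed to only 481 to 935 CPM (counts scaled to library size by the trimmed mean of M values method, TMM). The 2 rows opposite them summed to 44631 to 57841 CPM under vehicle and to 49511, 26938 and 41098 CPM in VLX-1005 replicates 1, 2 and 3. The level of these markers cannot be read from their own rows alone. The share of ribosomal RNA was 1.69% to 2.11% under vehicle and 2.55%, 3.14% and 2.15% in VLX-1005 replicates 1, 2 and 3, without overlap. VLX-1005 replicate 2 stood apart. In a chi-square comparison of library pairs, the statistic over its degrees of freedom lay between 12.6 and 23.0 for the 6 pairs with this library, against 4.28 to 12.9 for the other 15. Values without this library are given where they bear on a row.

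In 4 of the 6 rows the annotation places an exon of another gene on the opposite strand, and those shared stretches are where a read can be claimed by either gene. They are shown from the mm10 transcripts, read along the strand named. Untranslated parts, a further short coding stretch of Ltc4s and the stretch shared with Maml1 are not shown. The Ptgis stretch (chr2:167191830-167191985, plus strand, along 1110018N20Rik) is 156 bases long and is coding in 1 of 3 annotated Ptgis transcripts. The Ltc4s stretches (chr11:50237017-50237098 and chr11:50237194-50237264, minus strand) are coding exon that Gm26542 crosses. The Ptgs1 stretch (chr2:36249096-36249243, plus strand) is a whole coding exon of 148 bases inside Gm43621. The Lpcat2 stretch (chr8:92855455-92855625, plus strand) is the start of its coding sequence inside Gm45472, with the start codon in capitals.
Ptgis/1110018N20Rik: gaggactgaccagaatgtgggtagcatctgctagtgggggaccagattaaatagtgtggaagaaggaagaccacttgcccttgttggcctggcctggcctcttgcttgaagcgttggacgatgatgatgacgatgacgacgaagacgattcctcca
Ltc4s, 82 bases: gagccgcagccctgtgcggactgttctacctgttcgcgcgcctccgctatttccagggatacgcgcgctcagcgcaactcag
Ltc4s, 71 bases: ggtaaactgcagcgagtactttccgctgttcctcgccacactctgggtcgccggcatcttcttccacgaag
Ptgs1: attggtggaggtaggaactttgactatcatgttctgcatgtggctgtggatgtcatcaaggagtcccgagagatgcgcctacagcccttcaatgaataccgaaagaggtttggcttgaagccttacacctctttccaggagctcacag
Lpcat2: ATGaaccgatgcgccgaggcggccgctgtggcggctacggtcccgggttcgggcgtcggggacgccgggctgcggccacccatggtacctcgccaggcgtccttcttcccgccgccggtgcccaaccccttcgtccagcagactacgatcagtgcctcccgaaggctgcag

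The shared stretches made up a small part of each row. They covered 6.08% of the exon bases of Ptgis, 7.32% of Gm43621, 20.1% of Gm45472 and, at Ltc4s, 18.1% of Gm26542. Gm26542 shared a further 9.13% of its exon bases with Maml1, a coactivator gene of Notch signalling. The remaining exon bases of the 3 Gm genes lie in introns of these genes or outside them. The table gives 1 count per gene, so where within a row the reads fell was not analysed here.

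**Figure D1:**
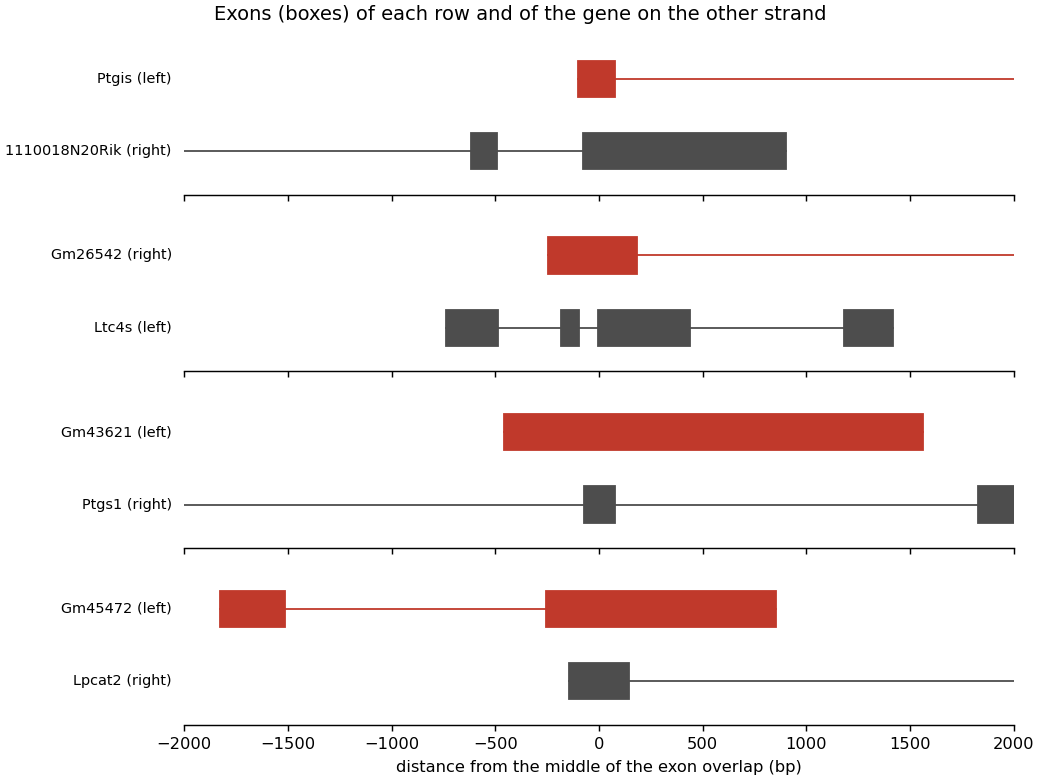
Exons (boxes) and gene bodies (lines) of each described row (red) and of the gene on the other strand (grey), drawn around the middle of the exon overlap, with the direction of transcription beside each name. The single exon of Gm43621 (2022 bp) runs over a whole Ptgs1 exon of 148 bp, and the last exon of 1110018N20Rik (979 bp) covers most of a Ptgis exon of 181 bp.

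The 2 lipoxygenase genes had few or no counts, and no library held more than 4 of either. Alox15 (ENSMUSG00000018924.6, mm10 chr11:70344152-70352031) encodes the mouse 12/15-lipoxygenase and is the gene whose coding region the human gene replaced. It had 0 counts in vehicle replicates 1 to 4, 1 count in VLX-1005 replicate 1 and 0 counts in VLX-1005 replicates 2 and 3. Alox12 (ENSMUSG00000000320.10, chr11:70241457-70255353) encodes the mouse platelet-type 12-lipoxygenase, the counterpart of the inserted human gene, and was left intact. It had 2, 3, 2 and 2 counts under vehicle and 0, 1 and 4 counts under VLX-1005, and the groups overlapped. A count of 0 in a library allows up to 3 counts, here 2.04 to 2.85 CPM, and this limit covers counting error only. The Alox15 coding region was replaced in both groups, so its row gives no comparison, and neither gene was given a fold change. Neither gene has an annotated exon on its other strand, the part of the strand setting in these low counts was not tested, and the human ALOX12 transcript was not analysed here. Platelets are a main site of Alox12, and of 6 platelet and megakaryocyte markers 4 (Pf4, Ppbp, Gp1bb and Gp6) were at 0 in all 7 libraries. The summed level of these markers was 2.34 to 14.2 CPM under vehicle and 1.36 to 3.11 CPM under VLX-1005, with Itga2b giving 39 of 40 counts. Own rows of abundant genes were low in these libraries, so a marker at 0 does not show that its cells were absent.

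The remaining lipoxygenase genes were as low. Alox5, whose product starts leukotriene synthesis, had 0, 3, 0 and 1 counts under vehicle and 0, 7 and 0 under VLX-1005, so 7 of its 11 counts came from VLX-1005 replicate 2. Alox8 had 1 count in all and Aloxe3 had 3, while Alox12b and Alox12e were at 0 in every library. Alox5ap, the helper protein of Alox5, had 5, 2, 2 and 5 counts under vehicle and 2, 4 and 1 under VLX-1005 on its own row. The antisense gene Gm19719, which overlaps Alox5ap by 189 bases, held 78, 107, 86 and 119 counts under vehicle and 142, 98 and 91 under VLX-1005. The Gm19719 groups overlapped, at 79.8 ± 11.5 CPM (SD, n = 4) and 86.9 ± 14.1 CPM (n = 3), with a log2 fold change of 0.13 ± 0.20 (SE; adjusted p = 0.787 in edgeR).

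Downstream in the prostanoid branch, Ptgis was the described row that had lower values in every VLX-1005 library than in any vehicle library. Ptgis (ENSMUSG00000017969.13, chr2:167191805-167240604, minus strand) encodes prostacyclin synthase, which makes the vasodilator prostacyclin from the cyclooxygenase product. Its counts were 135, 162, 127 and 161 under vehicle and 145, 67 and 121 under VLX-1005. Scaled to depth, it had 113, 125, 116 and 126 CPM under vehicle and 98.6, 63.7 and 94.1 CPM under VLX-1005. All 3 VLX-1005 libraries lay below all 4 vehicle libraries on that scale, while the raw counts of VLX-1005 replicate 1 lay within the vehicle range. The means were 120 ± 6.51 CPM (n = 4) and 85.5 ± 19.0 CPM (n = 3), a log2 fold change of −0.48 ± 0.19 (VLX-1005 against vehicle, edgeR fit). The lowest value was that of replicate 2, and without this library the log2 fold change was −0.31. With the ribosomal RNA share as a covariate it was −0.17.

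The gene that shares the Ptgis stretch printed above had more counts under VLX-1005 in most libraries. 1110018N20Rik, a processed transcript of no assigned function on the plus strand, had 0, 2, 2 and 6 counts under vehicle and 13, 12 and 6 under VLX-1005. Most of its values lay near the floor, the groups overlapped by CPM (0 to 4.69 under vehicle, 4.66 to 11.4 under VLX-1005), and it was too low to be tested. Over the 7 libraries Ptgis held 918 counts and 1110018N20Rik 41, so the opposite row took 4.28% of the pair (95% Wilson interval 3.17% to 5.75%, counting error only). Per kilobase of exon this was 358 counts against 26.

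At the cyclooxygenase gene that supplies Ptgis, nearly all counts of the pair lay on the row opposite it, Gm43621. The counts on that row cannot be assigned to either gene with certainty. Ptgs1 encodes the constitutive cyclooxygenase, and its own row held 1 count in VLX-1005 replicate 3 and 0 in the other libraries. Gm43621 (ENSMUSG00000106933.1, chr2:36248709-36250730, minus strand) is a single-exon gene of the class that awaits experimental proof, and nothing is known of its function. Its counts were 24, 26, 12 and 40 under vehicle and 47, 76 and 32 under VLX-1005. Its levels were 20.02, 20.04, 11.0 and 31.3 CPM under vehicle and 31.97, 72.3 and 24.9 CPM under VLX-1005. The groups overlapped, since VLX-1005 replicate 3 lay below vehicle replicate 4. The means were 20.6 ± 8.30 CPM (n = 4) and 43.0 ± 25.6 CPM (n = 3), with a log2 fold change of 1.04 ± 0.41. Without VLX-1005 replicate 2 the log2 fold change was 0.46, and with the ribosomal RNA share as a covariate it was 0.03. The Ptgs2 row, the inducible cyclooxygenase, had 2 counts in VLX-1005 replicate 2 and 0 elsewhere.

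In the leukotriene branch, Gm26542 was higher under VLX-1005. The gene opposite it, Ltc4s, encodes the synthase that joins glutathione to the leukotriene precursor and so begins the cysteinyl leukotrienes. Gm26542 (ENSMUSG00000097887.1, chr11:50236953-50288839, plus strand) is an antisense gene of 4 exons. Its counts were 6, 3, 4 and 3 under vehicle and 12, 15 and 14 under VLX-1005. The levels were 5.01, 2.31, 3.66 and 2.34 CPM under vehicle and 8.16, 14.3 and 10.9 CPM under VLX-1005. No VLX-1005 library fell to the vehicle range, although the vehicle values lay close to the floor of 3 counts. The means were 3.33 ± 1.28 CPM (n = 4) and 11.1 ± 3.06 CPM (n = 3), with a log2 fold change of 1.71 ± 0.49. It was 1.34 with the ribosomal RNA share as a covariate.

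Ltc4s itself was counted at a similar depth to the gene opposite it. Its own row had 6, 6, 1 and 8 counts under vehicle and 8, 5 and 11 under VLX-1005, with 4.20 ± 2.30 CPM (n = 4) and 6.25 ± 2.02 CPM (n = 3). The Ltc4s groups overlapped. Gm26542 took 55.9% of the counts of the pair over all libraries (Wilson 95% interval 46.2% to 65.1%). It took 43.2% under vehicle (28.7% to 59.1%, 16 counts against 21 on Ltc4s) and 63.1% under VLX-1005 (50.9% to 73.8%, 41 against 24). These intervals cover counting error only, and the vehicle interval reaches to both sides of equality. Gm26542 was selected on this contrast, so nothing is read from the split by group. Per kilobase of exon the level over all libraries was 38.6 counts for Gm26542 and 44.4 for Ltc4s. Maml1, the other gene that Gm26542 overlaps, had 0, 7, 1 and 0 counts under vehicle and 0, 9 and 3 under VLX-1005. Mast cells and basophils are known for Ltc4s, and of their 6 markers Kit, Fcer1a, Ms4a2 and Tpsb2 were at 0 in all libraries. The summed level of these markers was 0 CPM in every vehicle library and 0 to 3.81 CPM under VLX-1005, from 5 counts in all. As for the platelet markers, counts of 0 here do not show that these cells were absent.

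The row with the largest difference of the 6 lay at a gene of platelet-activating factor. Lpcat2 encodes the acyltransferase that both rebuilds membrane phospholipids and, in inflammatory cells, acetylates the lyso precursor to platelet-activating factor. Its own row was at 0 in all 7 libraries. Gm45472 (ENSMUSG00000109669.1, chr8:92853653-92856334, minus strand), an antisense gene of 2 exons, had 3, 0, 1 and 5 counts under vehicle and 15, 27 and 14 under VLX-1005. The levels were 2.50, 0, 0.914 and 3.91 CPM under vehicle and 10.2, 25.7 and 10.9 CPM under VLX-1005. Every VLX-1005 library was above every vehicle library, and each vehicle count but 1 was at or below 3. The means were 1.83 ± 1.73 CPM (n = 4) and 15.6 ± 8.75 CPM (n = 3), with a log2 fold change of 2.99 ± 0.69. The highest value was again that of replicate 2, without which the log2 fold change was 2.45. The ribosomal RNA share as a covariate brought it to 1.92. With so few vehicle counts the size of this difference depended on the prior count, and it was 2.30 at a prior count of 2.

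Gm45472 and Lpcat2 are transcribed in opposite directions across the Lpcat2 start, so the antisense gene also runs through the Lpcat2 promoter. The 250 bases before the RefSeq start of Lpcat2 (GRCm38.p6, which is mm10, chr8:92855083-92855332, plus strand) are printed with the 109 bases that belong to a Gm45472 exon in capitals.
Lpcat2 promoter: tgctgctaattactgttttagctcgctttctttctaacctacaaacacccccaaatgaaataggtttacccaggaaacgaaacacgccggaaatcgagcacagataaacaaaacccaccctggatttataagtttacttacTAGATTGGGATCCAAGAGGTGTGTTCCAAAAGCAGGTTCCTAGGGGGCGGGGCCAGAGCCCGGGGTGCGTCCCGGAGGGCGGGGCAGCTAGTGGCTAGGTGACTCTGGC
A search of both strands for the GC box GGGCGGG found 2 matches, both in the capitals. The motif was present in 7687 (23.4%) of 32851 RefSeq promoter windows of this length.

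**Figure D2:**
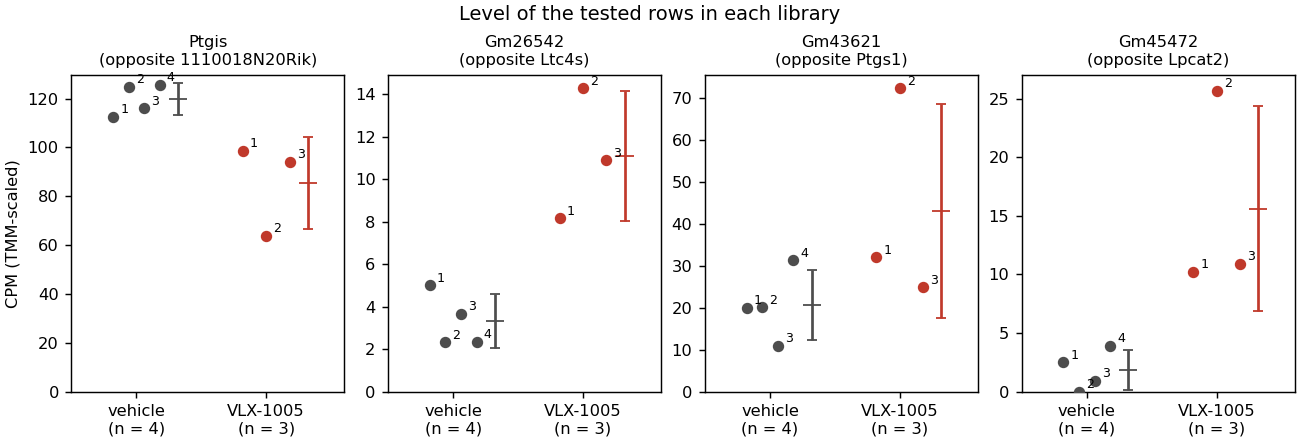
CPM on the TMM scale of the 4 rows that passed the filter on low counts, 1 point per library with its replicate number, and bars for mean ± SD (vehicle n = 4, VLX-1005 n = 3). In each panel VLX-1005 replicate 2 lies farthest from vehicle, at 63.7 CPM for Ptgis, 14.3 for Gm26542, 72.3 for Gm43621 and 25.7 for Gm45472.

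Seen together, 4 of the 6 rows passed the filter on low counts, and Alox15 and Alox12 did not. Among those 4, VLX-1005 replicate 2, the library with the most ribosomal RNA, held the highest value of Gm26542, Gm43621 and Gm45472 and the lowest of Ptgis. In the fit across all genes 1 of the 4, Gm45472, was called at an adjusted p below 0.05, where 2.37% of 4218 tested genes were called, 2.35% as higher and 0.0237% as lower. The groups did not overlap in 3 of the 4 rows, of which 2 were higher and 1 was lower, against 17.8% of tested genes (9.46% higher and 8.32% lower). As the rows were chosen for this contrast, nothing is read from these counts. The Gm45472 call was lost without any 1 of the 4 vehicle libraries, without VLX-1005 replicate 1 or 2, with the ribosomal RNA share as a covariate, and with the replicate block (adjusted p = 0.123 in edgeR). Markers of other cells are given beside these values. The summed level of 8 lymphocyte markers was 271 to 345 CPM under vehicle and 195 to 260 CPM under VLX-1005. Foxp3 gave 2293 of these 2309 counts, so the sum stands for 1 row and not for lymphocytes as a whole. The 3 rows opposite lymphocyte markers were at 0 to 3.34 CPM and 3.11 to 10.2 CPM, with Ccdc22 giving 33 of 36 counts. The 6 mesenchymal and smooth muscle markers overlapped on their own rows, at 39.3 to 55.5 CPM and 45.1 to 73.2 CPM, with Acta2 at 0 and Tagln giving 391 of 425 counts. The 1 row opposite such a marker, Pcsk7 (opposite Tagln), was at 16.4 to 28.5 CPM and 29.3 to 43.8 CPM, without overlap. Myeloid markers were at 245 to 317 CPM and 274 to 305 CPM, with Adgre1 at 0 and Csf1r giving 2370 of 2401 counts. The 1 row opposite a myeloid marker, Hmgxb3, held 4 counts. The part of these markers in the described differences was not tested. The share of ribosomal RNA did not overlap between the groups, so its part and that of the treatment cannot be told apart. This holds also for the fits with that share as a covariate. In bulk islets fewer cells of a type and less RNA per cell cannot be told apart.

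The genes whose profile over the 7 libraries was most like that of each row were taken from all tested genes, by the mean absolute difference of centred log2 CPM. For Ptgis they were Gm12841 (opposite the proton pump gene Atp6v0b) at 0.044 and 4930506C21Rik (opposite the mitochondrial pyruvate carrier gene Mpc1) at 0.055, where the median tested gene was at 0.350. For Gm43621 they were Gm26885 (opposite the kinase gene Pim1) at 0.104 and Gm45515 (opposite Swap70) at 0.137, with a median of 0.609. For Gm26542 they were 5330438I03Rik (opposite Ildr2) at 0.227 and the splicing factor gene Ptbp1 at 0.238, with a median of 0.714. For Gm45472 they were Runx2os1 (opposite Runx2) at 0.339 and Gm43714 (opposite Khdc4) at 0.352, with a median of 1.178. Each of these 8 genes has an exon opposite that of another gene. Rows of that kind held 95.7% to 96.3% of the counts in each library. Their share of the tested genes was not analysed here, so nothing is read from this.

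The wider pathway was taken as a list of 95 genes, of which 94 were in the table. On the own rows of the 91 genes that are not described rows, 35 were at 0 in all libraries and 10 were tested. None of the 10 was called by edgeR, 1 had an unadjusted p below 0.05, and DESeq2 also called 0. Over all 4218 tested genes, edgeR called 100, 759 had an unadjusted p below 0.05, and DESeq2 called 197. With 10 rows nothing is read from these counts. Values were positive for 4 and negative for 6, with a median log2 fold change of −0.15, against −0.01 over all tested genes. Ptgdr2, the receptor through which prostaglandin D draws in type 2 helper cells and eosinophils, had 61.7, 46.3, 53.0 and 47.7 CPM under vehicle and 36.7, 32.3 and 33.4 CPM under VLX-1005. The groups did not overlap, as in 17.8% of all tested genes, and the log2 fold change was −0.60 ± 0.22 (adjusted p = 0.185 in edgeR). Its exons overlap 1031 bases of Ccdc86, whose own row held 7 counts. Ptgr2, which inactivates prostaglandins, also had groups without overlap, with a log2 fold change of −0.68 ± 0.32 (adjusted p = 0.287 in edgeR). Ptges, a prostaglandin E synthase, had a log2 fold change of −0.45 ± 0.32 (adjusted p = 0.484 in edgeR). Gpr17, a receptor related to those of leukotrienes, had 23.7 ± 8.65 CPM under vehicle and 38.4 ± 12.6 CPM under VLX-1005, with a log2 fold change of 0.69 ± 0.33 (adjusted p = 0.302 in edgeR). Lpcat3, which puts arachidonate back into phospholipids, had a log2 fold change of −0.30 ± 0.25 (adjusted p = 0.554 in edgeR), and Daglb, which releases an arachidonate-bearing lipid, one of 0.09 ± 0.13 (adjusted p = 0.775 in edgeR).

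On rows opposite the list genes, 6 were tested apart from the described ones. Of these, 4 had positive and 2 negative log2 fold changes, and 1 (Tsen34) was called, as higher. Over all tested genes, 2.35% were called as higher. Tsen34, a subunit of the tRNA splicing endonuclease, overlaps Mboat7, the acyltransferase that loads arachidonate onto phosphatidylinositol, by 277 bases. It had 65.9, 54.7, 46.6 and 63.3 CPM under vehicle and 118, 171 and 84.0 CPM under VLX-1005. All 3 VLX-1005 libraries were above all 4 vehicle libraries, as in 9.46% of all tested genes. The means were 57.6 ± 8.75 CPM and 124 ± 44.0 CPM, with a log2 fold change of 1.11 ± 0.24 (adjusted p = 0.0362 in edgeR). Mboat7 itself was at 11.3 ± 1.56 CPM and 11.8 ± 4.35 CPM (log2 fold change 0.04 ± 0.39, adjusted p = 0.968 in edgeR). The Tsen34 call was lost in 8 of 14 other settings (adjusted p from 0.000141 to 0.819, log2 fold change 0.48 to 1.31), among them the omission of any library but VLX-1005 replicate 3 and the ribosomal RNA share as a covariate. The gene of the second platelet-activating factor locus with an opposite row, Pla2g7, encodes the plasma hydrolase that breaks the mediator down and was at 0 in all libraries. Opposite it, 1700071M16Rik had 221, 89.4, 54.9 and 288 CPM under vehicle and 298, 589 and 187 CPM under VLX-1005. The groups overlapped, with a log2 fold change of 1.13 ± 0.67 (adjusted p = 0.437 in edgeR). Gm26588, opposite the monoglyceride lipase gene Mgll, had a log2 fold change of 0.53 ± 0.41 (adjusted p = 0.530 in edgeR).

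**Figure D3:**
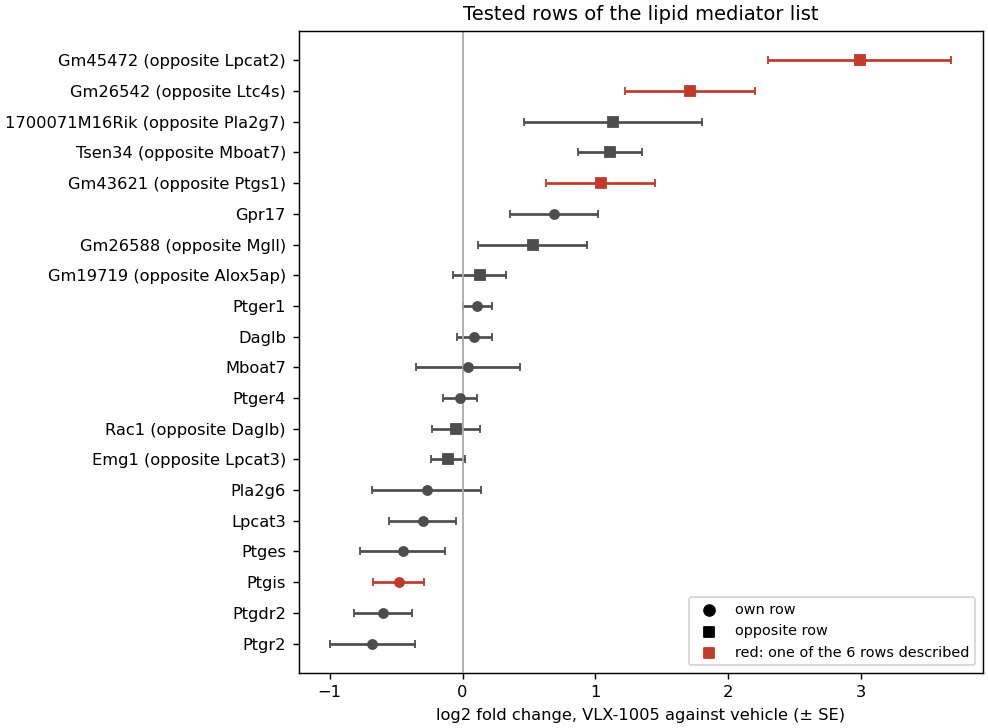
Log2 fold change of VLX-1005 against vehicle ± SE from the edgeR fit for every tested row of the lipid mediator list, with circles for a gene's own row and squares for the row opposite it, and the described rows in red. Values run from −0.68 (Ptgr2) to 2.99 (Gm45472), and Gm26542, Gm43621 and Gm45472, among the highest, were selected on this contrast.

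Which row of a pair held most of the counts differed widely within the list. Of 21 list genes with a counted row on the other strand, that row held more counts than the gene's own row at 11 and fewer at 10, and per kilobase of exon it held more at 9. At 4 of the 21 (Ltc4s, Pla2g4b, Slco2a1 and Ptgfr) the Wilson interval of the share reached to both sides of equality, so which row held more was not settled. Ptgs1, Lpcat2 and Pla2g7 lay at one end, with 99.6% (Wilson 95% interval 97.8% to 99.9%), 100% (94.4% to 100%) and 100% (99.8% to 100%) of the pair on the other strand. Ptgis lay among the loci with more counts on their own row. Ptger1, the prostaglandin E receptor that couples to calcium, was the most counted gene of these loci with 17230 counts on its own row. Daglb held 7597 counts against 723 on Rac1, which it overlaps by 2309 bases, and Ptger4, another prostaglandin E receptor, held 2026 against 16 on the rows opposite. Ptger1 and Ptger4 did not pass the test between the groups, with log2 fold changes of 0.11 ± 0.11 (adjusted p = 0.626 in edgeR) and −0.02 ± 0.13 (adjusted p = 0.946 in edgeR).

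**Figure D4:**
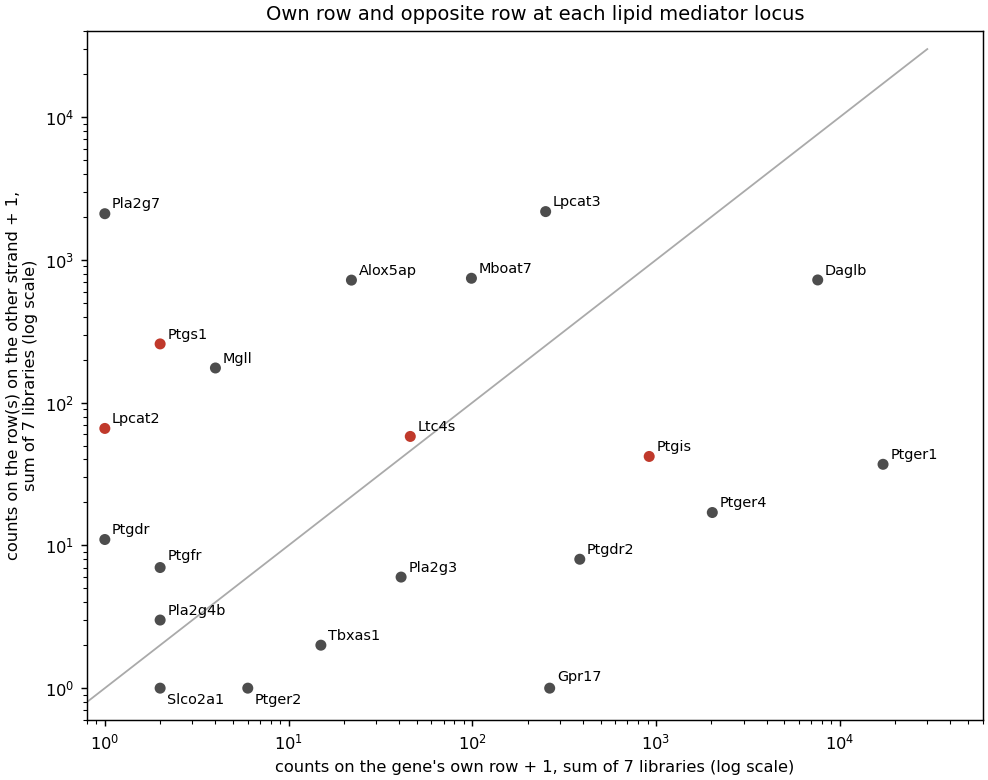
Counts plus 1, summed over the 7 libraries, on a gene's own row (horizontal, log scale) and on the rows opposite it (vertical, log scale) for the 21 list genes with an opposite row, with the loci of the described rows in red and a grey line where both are equal. Ptgs1 (1 against 257 counts) and Lpcat2 (0 against 65) lie far above the line, Ltc4s (45 against 57) lies just above it, and Ptgis (918 against 41) lies below it.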

How the data were processed

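Islet RNA of 4 vehicle and 3 VLX-1005 libraries, grouped by their titles, was analysed. The deposited values are unnormalized read counts for each Ensembl gene. The submitters' processing notes and the study's methods name Trimmomatic, FastQC, HISAT2 on mm10, HTSeq in Galaxy and DESeq2; the strand setting, annotation release and versions were not given in the sources used here. Gene IDs were matched to GENCODE M21 (mm10), which placed 48058 of 48440 genes, and bedtools 2.31.1 listed exon overlaps on the other strand. Promoter sequence is from RefSeq (GRCm38.p6), and 5 of the 10 genes looked up had an entry.

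VLX-1005 was set against vehicle in edgeR 4.0.16 under R 4.3.3, by its quasi-likelihood test (trimmed mean of M values, filterByExpr, robust dispersion, no covariate), with Benjamini-Hochberg adjustment over 4218 tested genes and calls at 0.05, two-sided. Fold changes used a prior count of 0.125. Each SE of a log2 fold change was derived as its absolute value over the square root of the F statistic of this test. The procedure was tested on simulated data. Values of some genes are not reported here. Total counts were 1024586 to 1430785, so 3 counts equal 2.04 to 2.85 CPM, and no molecular identifiers are named in the sources used here. The study gives its group sizes in mice, in a range that fits these libraries, but the labels tie no library to an animal. If any were shared, p-values cover only the spread among these libraries, which may be technical. The rows, lists and tests were chosen with earlier results of these data known. Named beside the described rows were, by rule, called list genes, up to 2 per role by smallest p, and the 2 most similar profiles per tested row; other genes were chosen after their values were seen. Alternatives were DESeq2 1.42.0, other scalings and filters, the replicate number as a block, a ribosomal RNA covariate, a prior count of 2, a 50-base overlap and omission of each library.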

Additional observations from a re-analysis of the deposited data

How the results depend on the processing

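The direction of Ptgis, Gm26542, Gm43621 and Gm45472 was the same under all 15 other settings run for each. With the ribosomal RNA share as a covariate their log2 fold changes moved to −0.17, 1.34, 0.03 and 1.92. That share did not overlap between the groups, so this fit cannot tell it apart from the treatment. Under the other 14 settings each log2 fold change moved by less than the SD between replicates. With 1 library left out the log2 fold changes ran from −0.60 to −0.31 (Ptgis), 1.5 to 1.97 (Gm26542), 0.46 to 1.32 (Gm43621) and 2.45 to 3.67 (Gm45472). The 100 genes called over the table became 197 with DESeq2, 263 with every detected gene tested, 164 when 1 CPM in 3 libraries was required, 19 with the replicate block, 0 in edgeR with the ribosomal RNA covariate (260 at an unadjusted p below 0.05), and 14 to 203 with 1 library left out. Of the tested rows opposite list genes, the described rows left out, 1 was called by edgeR, against 0 with the replicate block (2 at an unadjusted p below 0.05), 0 with the ribosomal RNA covariate (0 at an unadjusted p below 0.05) and 0 to 1 with 1 library left out. Own rows gave 0 calls in edgeR and DESeq2 under every setting run (1 or 2 at an unadjusted p below 0.05), and 11 of 21 loci held more counts opposite also at an overlap of 50 bases. The replicate numbers did not pair the libraries (correlation of deviations −0.035, −0.020 and 0.088 for the numbers 1, 2 and 3). Alox15, Alox12, Ptgs1 and Lpcat2 held too few counts for a comparison, and whether depth or the strand setting limits them was not tested. The vehicle levels of Gm45472 and Gm26542 lie near the floor of 3 counts.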
